A study of Mus musculus with 4 samples.

Results

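The unfolded protein response and its ATF4 branch were followed through 10 genes in the mouse left ventricle: Atf4, Atf5, Ddit3, Chac1, Trib3, Asns, Xbp1, Hspa5, Hsp90b1 and Dnajb9. The genes were taken by symbol out of 32285 genes in the deposited matrices, of which 25999 held at least 1 count in the series, and each was measured as its unique molecular identifiers (UMIs) summed over all barcodes of a library. The 4 libraries were made on the 10x Chromium 3′ system from male C57BL/6J mice, 1 library per condition. Young mice were 3 to 5 months old and aged mice 24 to 26 months old. I/R hearts had 45 min of ischemia by surgery on the left anterior descending artery (LAD) and 24 h of reperfusion. The paper describes the comparison hearts as sham-operated, whereas the treatment label calls them healthy and unaltered. All mice were wild type, how many mice entered a library is not stated, and the labels name nuclear RNA where the paper describes single cells. Levels are given as CPM, the UMIs of a gene scaled to a common library total such that 1% of a library is 10000 CPM.

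When misfolded protein collects in the endoplasmic reticulum (ER), cells answer through 3 sensors, the kinase PERK, the nuclease IRE1 and the membrane-bound factor ATF6. PERK phosphorylates eIF2α, which slows general protein synthesis while favouring translation of the transcription factor ATF4. The same step is reached through other kinases by amino acid shortage, heme shortage or viral RNA and is called the integrated stress response. ATF4 drives genes of amino acid supply and, together with CHOP (Ddit3), genes linked to cell death, whereas ATF6 and the spliced form of XBP1 raise the chaperones and folding enzymes of the ER. Both branches are known to respond in the heart to ischemia and reperfusion. ATF4 and XBP1 are regulated largely by translation and by splicing, and neither step is seen in 3′ UMI counts.

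In the young heart, Atf4, Asns and Dnajb9 were higher after I/R by more than 1.5-fold, while Ddit3 and Trib3 were lower by more than 1.5-fold. Of all genes in that pair, 6.36% were higher and 46.1% lower by 1.5-fold or more. With the libraries scaled by the median of gene-wise ratios, Ddit3 stayed past the fold (-0.65 on the log2 scale) and Trib3 did not (-0.28). In the aged heart the 6 genes of the ATF4 arm (Atf4, Atf5, Ddit3, Chac1, Trib3, Asns) all had log2 ratios below 0 after I/R, between -0.76 and -0.05, and Hspa5, Hsp90b1 and Xbp1 were higher, by 0.30 to 0.41 on the log2 scale. The intervals of Atf4 and Asns included 0, and Dnajb9, the remaining chaperone, was lower at -0.26. Of all genes in the aged pair, 16.7% were higher and 9.71% lower by 1.5-fold or more, with a median of 0.09. The share of genes with lower ratios was 68.5% for Hspa5, 66.7% for Hsp90b1 and 74.1% for Xbp1. For the arm it ran from 5.64% (Chac1) to 39.4% (Atf4). Relative to the ER chaperones, summed UMIs of the ATF4 arm were fewer after I/R at both ages. In the young heart this did not hold gene by gene. Per 100 Hspa5 UMIs, Ddit3 went from 19.8 in young sham to 6.68 in young I/R, and Atf4 from 20.2 to 23.7. Ddit3 was lower after I/R at both ages, and most so relative to Atf4 in the young, where Atf4 was higher. Of all genes tested, 22.6% had lower ratios than Ddit3 in young hearts and 8.01% in aged hearts. Each condition had 1 library, so that no test or p-value could be given, and all intervals are 95% intervals that cover counting error only.

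The libraries held 91124 to 102883 barcodes and 25836175 to 66767829 UMIs, with median UMIs per barcode of 244 (sham) and 374 (I/R) in young hearts and 391 and 675 in aged hearts. In the same order, mitochondrial genes took 10.0%, 14.1%, 15.6% and 9.98% of the UMIs, and the single transcript Gm42418 took 11.5%, 19.4%, 14.0% and 13.8%. Over all genes with at least 20 UMIs, the median log2 CPM ratio was -0.51 in young I/R over young sham, against 0.09 in aged I/R over aged sham, -0.14 in aged over young sham and 0.47 in aged over young I/R. Ratios were therefore also set against these medians and recomputed after scaling each library by the median of gene-wise ratios. That scaling added 0.47 to every young I/R log2 ratio, -0.09 to every aged one, 0.15 between the sham libraries and -0.41 between the I/R libraries. Barcodes with at least 200 detected genes made up 28.4% of young sham, 55.2% of young I/R, 67.9% of aged sham and 98.8% of aged I/R barcodes. Barcode sequences seen in more than 1 library made up 7.44% to 7.92% of each library. Markers of the 4 labelled cell types were present throughout, with 82749 to 104606 CPM over 12 cardiomyocyte markers, 2290 to 2744 over endothelial, 1092 to 1836 over fibroblast and 271 to 583 over macrophage markers. The I/R-to-sham log2 ratios of these sums in young and aged hearts were -0.21 and 0.26 for cardiomyocyte and 0.20 and -0.10 for endothelial markers. They were -0.27 and -0.41 for fibroblast and -0.52 and -0.23 for macrophage markers. The summed neutrophil markers were 14.2 and 23.5 CPM in the young and aged sham libraries and 97.5 and 96.9 CPM in the I/R libraries. No marker of these lists was at 0 in any library, and the part of cell composition in the results was not tested. In such sums, fewer cells of a type and less RNA per cell cannot be told apart.

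Atf4 (ENSMUSG00000042406, chr15:80255184-80257541 in GRCm38, + strand) encodes the central transcription factor of the arm. It stood at 55.0 CPM without ischemia and 87.6 after I/R in young hearts, compared with 64.8 and 62.7 in aged hearts, from 1421 to 4189 UMIs. The young I/R library was above all others, and the intervals of the aged libraries overlapped (62.3 to 67.3 and 60.9 to 64.7 CPM). The I/R-to-sham log2 ratio was 0.67 (0.58 to 0.76) in young and -0.05 (-0.12 to 0.02) in aged hearts. Under gene-wise scaling they were 1.14 and -0.14. The sham level was 0.24 (0.14 to 0.33) higher on the log2 scale in aged than in young hearts, and the I/R level was lower by 0.48 (-0.55 to -0.42 as a ratio).

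Ddit3 (ENSMUSG00000025408, chr10:127290774-127296288, + strand) encodes CHOP, the factor associated with cell death in prolonged ER stress. Its level was 53.7 CPM for sham and 24.7 for I/R in the young, and 47.3 and 30.2, respectively, in the aged. Both I/R libraries were below both sham libraries, with no overlap of the intervals, and young I/R was the lowest in CPM, although aged I/R was the lowest under gene-wise scaling (27.9 against 30.4). The log2 ratio was -1.12 (-1.24 to -1.003) in young and -0.65 (-0.74 to -0.56) in aged hearts, and -0.65 and -0.74 under gene-wise scaling. Against 100 UMIs of Atf4 in the same library, a measure that needs no scaling, Ddit3 had 97.7 UMIs (90.6 to 105) without ischemia and 28.2 (26.2 to 30.3) after I/R in young hearts, compared with 73.0 (68.8 to 77.4) and 48.1 (45.6 to 50.8) in aged hearts. Ddit3 was lower relative to Atf4 after I/R at both ages, although Atf4 itself was higher in the young and not in the aged. Relative to the median of all genes, Ddit3 was at -0.61 in young and -0.73 in aged hearts. In the young pair, 94.6% of all genes tested had lower ratios than Atf4. A second feature row of the name Ddit3 (ENSMUSG00000116429) held 0 UMIs. At its 3′ end Ddit3 shares 68 exonic bases with Mars on the other strand.

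Atf5 (ENSMUSG00000038539, chr7:44812256-44816658, - strand), a factor related to ATF4 and tied to the mitochondrial stress response, was at 32.4 CPM without ischemia and 24.5 after I/R in young hearts, compared with 46.5 and 34.3 in aged hearts. In CPM aged hearts were above young hearts in each condition, and I/R was below sham at each age. The aged-to-young log2 ratio was 0.52 in sham, and in I/R it was 0.49, or 0.07 under gene-wise scaling. The intervals of young sham (30.2 to 34.6 CPM) and aged I/R (32.9 to 35.7) overlapped. The I/R-to-sham log2 ratio was -0.40 (-0.54 to -0.27) in young hearts, which turned to 0.07 under gene-wise scaling, and -0.44 (-0.53 to -0.35) in aged hearts, which was -0.53 under that scaling. The direction in the young heart therefore depended on how the libraries were scaled. Per 100 Atf4 UMIs, Atf5 had 58.8 in sham and 28.0 in I/R of young hearts, and 71.7 and 54.6 in aged hearts.

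Trib3 (ENSMUSG00000032715, chr2:152337422-152344032, - strand), a pseudokinase induced by ATF4 and CHOP, was at 3.25 CPM for sham and 1.94 for I/R in the young, and 5.15 and 3.52, respectively, in the aged, from 77 to 235 UMIs. Its order of libraries was that of Atf5, with young I/R lowest and aged sham highest, and the intervals of young sham and aged I/R overlapped. The I/R-to-sham log2 ratio was -0.74 (-1.21 to -0.28) in young and -0.55 (-0.82 to -0.28) in aged hearts, or -0.28 and -0.64 under gene-wise scaling.

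Asns (ENSMUSG00000029752, chr6:7675169-7693254, - strand), the asparagine synthetase and a classic target of ATF4 in amino acid shortage, was at 1.43 CPM (sham) against 4.23 (I/R) in young hearts, with 3.14 against 2.89 in aged hearts, from 37, 168, 130 and 193 UMIs. Young sham stood apart as the lowest, with an interval of 1.01 to 1.97 CPM that met none of the others. The I/R-to-sham log2 ratio was 1.56 (1.04 to 2.12) in young and -0.12 (-0.45 to 0.21) in aged hearts, or 2.03 and -0.21 under gene-wise scaling. In barcodes with at least 200 detected genes the young ratio was 2.64, but that limit kept 28.4% of young sham and 55.2% of young I/R barcodes. Per 100 Atf4 UMIs, Asns had 2.60 in young sham and 4.84 after I/R, and 4.85 and 4.61 in the aged libraries.

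Chac1 (ENSMUSG00000027313, chr2:119351229-119354381, + strand) encodes an enzyme that degrades glutathione downstream of ATF4 and CHOP. It had the fewest UMIs of the members and was at 0.968 CPM without ischemia and 1.41 after I/R in young hearts, compared with 1.52 and 0.899 in aged hearts, from 25, 56, 63 and 60 UMIs. The I/R-to-sham log2 ratio was 0.54 in young hearts, with an interval of -0.16 to 1.29 that includes 0, and -0.76 (-1.30 to -0.23) in aged hearts. On the CPM scale a difference in the young heart was not detectable at this depth, whereas gene-wise scaling moved the young ratio to 1.01 and the aged one to -0.86.

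Xbp1 (ENSMUSG00000020484, chr11:5520659-5525893, + strand), whose mRNA is spliced by IRE1, was at 49.4 CPM for sham and 66.5 for I/R in the young, and 49.4 and 65.7, respectively, in the aged. The levels followed the operation and were within counting error of each other between ages, with aged-to-young log2 ratios of -0.002 (-0.10 to 0.10) in sham and -0.02 (-0.09 to 0.05) in I/R. Under gene-wise scaling these were 0.15 and -0.43, so that the equality between the I/R libraries holds on the CPM scale alone. The I/R-to-sham log2 ratio was 0.43 (0.33 to 0.52) in young and 0.41 (0.34 to 0.49) in aged hearts, or 0.90 and 0.32 under gene-wise scaling.

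Hspa5 (ENSMUSG00000026864, chr2:34771970-34777547, + strand) encodes BiP, the main ER chaperone and the standard readout of ATF6 and XBP1 activity. It was at 272 CPM (sham) against 369 (I/R) in young hearts, with 341 against 427 in aged hearts, from 7022 to 28495 UMIs. Each I/R library was above the sham library of its age, by log2 ratios of 0.44 (0.40 to 0.48) in young and 0.32 (0.30 to 0.35) in aged hearts, and 0.91 and 0.23 under gene-wise scaling. Aged hearts were above young hearts by 0.33 (0.29 to 0.37) in sham. In I/R the log2 ratio was 0.21 (0.18 to 0.24), which turned to -0.21 under gene-wise scaling.

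Hsp90b1 (ENSMUSG00000020048, chr10:86690209-86705509, - strand) encodes GRP94, the HSP90 of the ER. Its levels were 251 CPM without ischemia and 260 after I/R in young hearts, compared with 300.2 and 370 in aged hearts. The young libraries differed little, with a log2 ratio of 0.05 (0.0010 to 0.09) that was 0.52 under gene-wise scaling, while aged I/R exceeded aged sham by 0.30 (0.27 to 0.33), or 0.21 under that scaling. Against 100 Hspa5 UMIs, Hsp90b1 had 92.5 for sham and 70.3 for I/R in the young, and 88.0 and 86.8, respectively, in the aged. The young I/R library was the one in which these chaperones parted. Hsp90b1 shares 133 exonic bases with Gm25745 and 84 with Gm15344 on its own strand, and 415 with 1810014B01Rik on the other strand.

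Dnajb9 (ENSMUSG00000014905, chr12:44205559-44210326, - strand) encodes ERdj4, a co-chaperone of BiP and a target of XBP1. It was at 15.6 CPM (sham) against 26.1 (I/R) in young hearts, with 23.4 against 19.6 in aged hearts, from 402, 1034, 968 and 1307 UMIs. It was higher after I/R in the young heart and lower after I/R in the aged heart, with log2 ratios of 0.74 (0.58 to 0.91) and -0.26 (-0.38 to -0.14). The signs were the same under gene-wise scaling, at 1.21 and -0.35. Per 100 Hspa5 UMIs, Dnajb9 had 5.72 (5.16 to 6.33) without ischemia and 7.05 (6.62 to 7.51) after I/R in young hearts, compared with 6.86 (6.42 to 7.33) and 4.59 (4.34 to 4.85) in aged hearts. The aged I/R library had the lowest of these ratios.

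**Figure D1:**
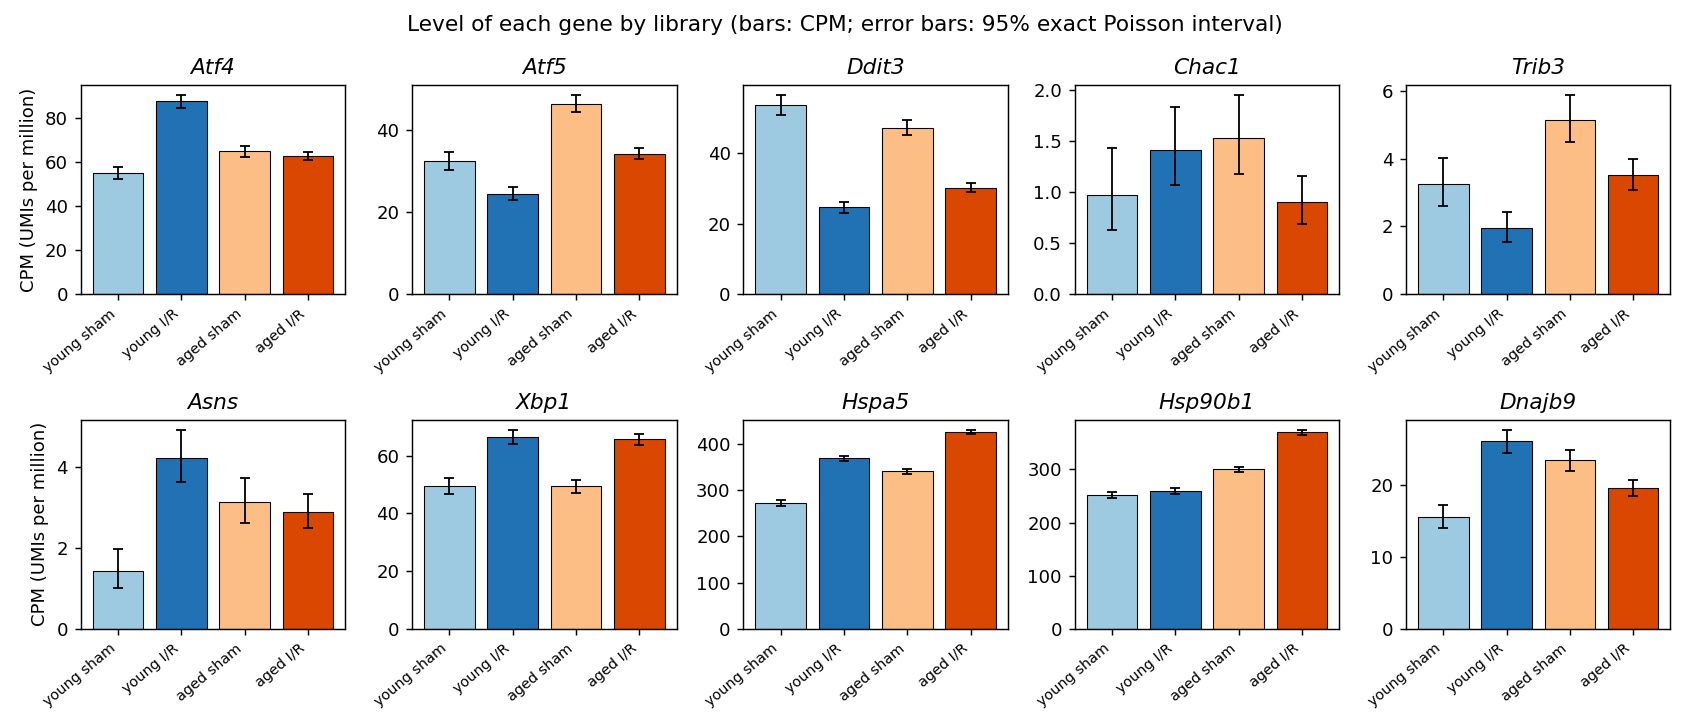
Level of the 10 genes in the 4 libraries. Each panel is 1 gene, bars are CPM on an axis from 0, and error bars are 95% exact Poisson intervals of the summed UMIs, with 1 library per bar. Ddit3 was lower in both I/R libraries, Xbp1 and Hspa5 were higher in both, and Atf4 was highest in young I/R at 87.6 CPM.

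Every member held at least 20 UMIs in each comparison, the limit set for a ratio, and no barcode held more than 7 UMIs of a member. In young I/R over young sham, 3 of 10 members (Atf4, Asns, Dnajb9) were higher by 1.5-fold or more, where 6.36% of all 15465 genes were, and 2 (Ddit3, Trib3) were lower, where 46.1% were. In aged I/R over aged sham, 0 members were higher, against 16.7% of 16761 genes, and 2 (Ddit3, Chac1) were lower, against 9.71%. Of the 10 members, 8 lay above the median of all genes in the young comparison and 3 in the aged comparison. Under gene-wise scaling 18.5% of all genes were higher and 24.9% lower in the young comparison, and 13.3% and 12.8% in the aged one. The members then gave 6 higher (Atf4, Chac1, Asns, Xbp1, Hspa5, Dnajb9) and 1 lower (Ddit3) in the young comparison, and 0 higher and 3 lower (Ddit3, Chac1, Trib3) in the aged one. The 2 comparisons of I/R with sham share no library.

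**Figure D2:**
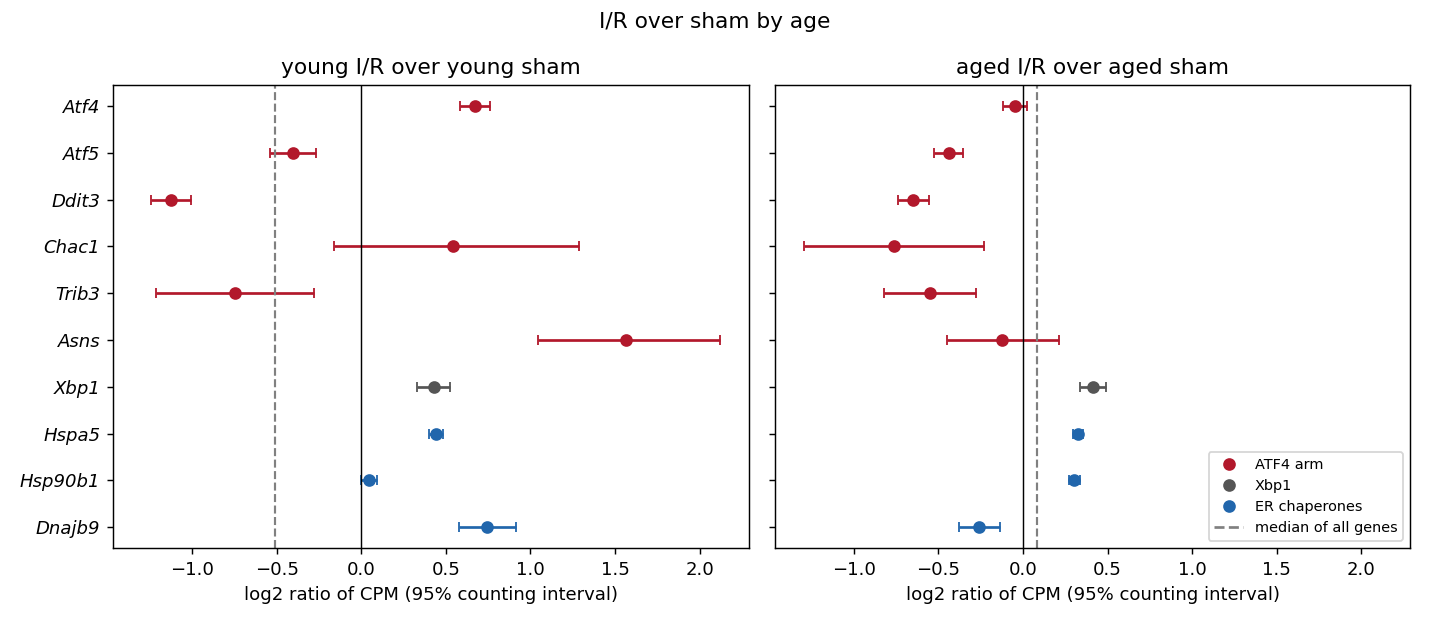
Log2 ratio of CPM, I/R over sham, for each gene in young (left) and aged (right) hearts. Points are ratios of 1 library over 1 library, bars are 95% counting intervals, the solid line is 0 and the dashed line is the median of all genes at -0.51 and 0.09. ATF4 arm genes spread from -1.12 to 1.56 in young hearts and lie between -0.76 and -0.05 in aged hearts.

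The ATF4 arm was next set against the ER chaperones Hspa5, Hsp90b1 and Dnajb9. In young hearts the median log2 ratio after I/R was 0.07 for the 6 genes of the arm, which ranged from -1.12 to 1.56, and 0.44 for the chaperones, which ranged from 0.05 to 0.74. In aged hearts the medians were -0.49 and 0.30, with ranges of -0.76 to -0.05 and -0.26 to 0.32. Relative to the median of all genes, the arm was at 0.58 in young and -0.58 in aged hearts, and the chaperones at 0.95 and 0.22. Above that median were 4 of the 6 arm genes in young and 0 in aged hearts, and 3 and 2 of the chaperones. The arm minus the chaperones was thus -0.37 in young and -0.80 in aged hearts, a difference that does not move with the scaling of the libraries. With Ddit3, Trib3 or Atf5 left out, the middle gene of the young arm was Chac1 at 0.54 (-0.16 to 1.29), above 0.44. The negative young sign therefore depended on single arm genes, and that interval includes 0.44. Between the I/R libraries, leaving out Atf4, Chac1 or Asns made Ddit3 (0.29) the middle gene, above the chaperones' 0.21. In aged I/R over sham all 6 arm genes lay below the chaperones' 0.30, so leaving out 1 kept the sign. Within the arm, the young heart combined higher Atf4 and Asns with lower Ddit3 and Trib3 on the CPM scale, so its median stood for few of its genes. Of all genes in that pair, 6.36% were higher and 46.1% lower by 1.5-fold or more. Under gene-wise scaling Trib3 was at -0.28, not past the fold, and Ddit3 at -0.65.

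In UMIs, young hearts had 27.2 (26.3 to 28.2) of the arm per 100 of the chaperones without ischemia and 22.0 (21.4 to 22.7) after I/R, and aged hearts had 25.3 (24.7 to 26.0) and 16.5 (16.1 to 16.8). The ratio was lower after I/R at each age and lowest in aged I/R. It weighs the abundant genes most, since Hspa5 and Hsp90b1 held 96.0% to 97.6% of the chaperone UMIs. Atf4 held 37.5% of the UMIs of the arm in sham and 60.7% in I/R for young hearts, and 38.5% and 46.6% for aged hearts. Atf4 taken alone went the other way in the young heart, with 20.2 (19.1 to 21.4) per 100 Hspa5 UMIs in sham and 23.7 (22.8 to 24.6) in I/R, against 19.0 (18.2 to 19.8) and 14.7 (14.2 to 15.2) in aged hearts. Per 100 Hspa5 UMIs, Ddit3 had 19.8 (18.6 to 20.9) in sham and 6.68 (6.25 to 7.13) in I/R of young hearts. In aged hearts it had 13.9 (13.2 to 14.5) and 7.07 (6.76 to 7.40). In young sham, 1388 of the 3791 arm UMIs were of Ddit3, beside 13920 chaperone UMIs. In young I/R, 979 of the 5725 arm UMIs were, beside 25989 chaperone UMIs. The young ratio of UMIs therefore leans on Ddit3, but the sums were not recomputed without it, so how far was not tested. These gene pairs were chosen after the levels had been seen.

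**Figure D3:**
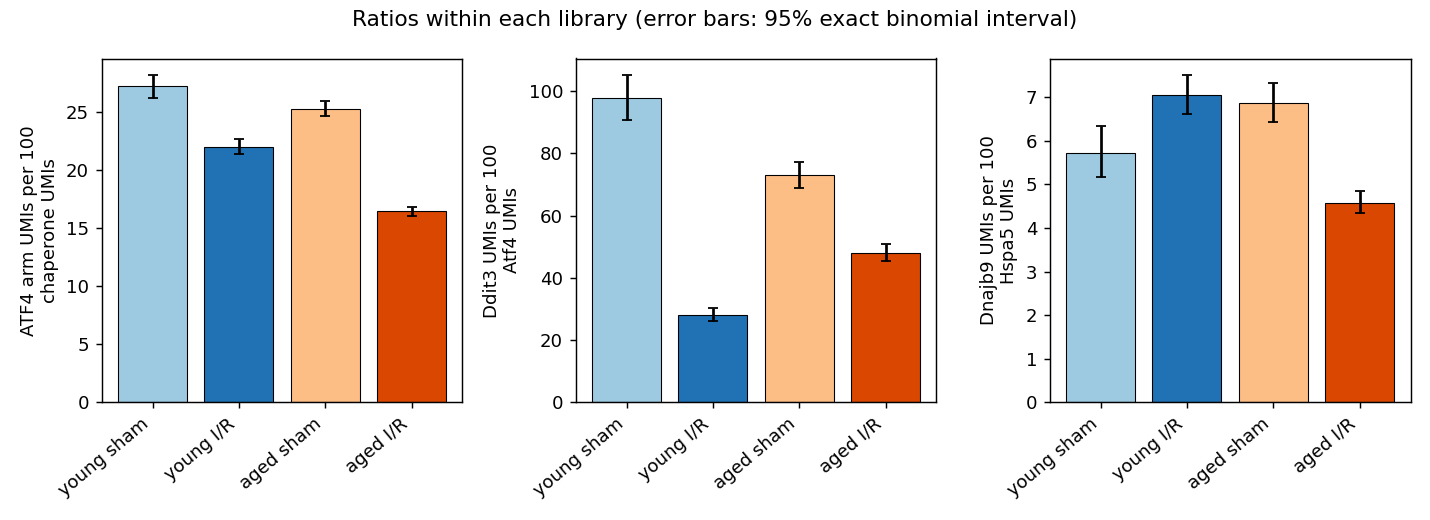
Ratios of UMIs within each library, which need no scaling between libraries. Bars are UMIs of the ATF4 arm per 100 chaperone UMIs, of Ddit3 per 100 Atf4 UMIs and of Dnajb9 per 100 Hspa5 UMIs, each on an axis from 0, and error bars are 95% exact binomial intervals. Ddit3 per 100 Atf4 was 97.7 in young sham and 28.2 in young I/R, and the arm per 100 chaperone UMIs was lowest in aged I/R at 16.5.

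The difference between ages in the I/R response was taken as the aged minus the young log2 ratio, with intervals from the counting errors of the 4 libraries. It was -1.69 (-2.29 to -1.08) for Asns, -1.31 (-2.16 to -0.46) for Chac1, -1.002 (-1.21 to -0.80) for Dnajb9 and -0.72 (-0.83 to -0.60) for Atf4. These 4 genes had the most negative differences, and the median of 13424 genes was 0.56. Hspa5 had -0.12, Xbp1 -0.01 and Atf5 -0.04, which became -0.68, -0.58 and -0.60 under gene-wise scaling. Trib3 had 0.20 (-0.33 to 0.72), within counting error of 0, and -0.37 under gene-wise scaling. Ddit3 at 0.48 and Hsp90b1 at 0.26 had positive differences on the CPM scale, which turned to -0.09 and -0.31 under gene-wise scaling.

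Between the sham libraries, 4 of 10 members (Chac1, Trib3, Asns, Dnajb9) were higher in aged than in young hearts by 1.5-fold or more, where 8.99% of 15875 genes were, and 0 were lower, where 19.8% were. The interval of Chac1 included 0 (0.65, -0.03 to 1.39). Asns had the highest ratio, 1.13 (0.60 to 1.70), followed by Trib3 at 0.66 (0.29 to 1.05) and Dnajb9 at 0.59 (0.42 to 0.76). In barcodes with at least 200 detected genes, 28.4% of young sham and 67.9% of aged sham barcodes, the ratio of Asns was 2.28. Ddit3 was the member below 0 with an interval away from it, at -0.18 (-0.28 to -0.08). It was near the median of all genes in this comparison, at -0.04 relative to it and -0.04 under gene-wise scaling. Between the I/R libraries, Trib3 was higher in aged hearts at 0.86 (0.48 to 1.25), where 42.7% of 16491 genes were higher by 1.5-fold or more, and Chac1 was lower at -0.65 (-1.20 to -0.10), where 4.38% were lower. Under gene-wise scaling the shares of all genes were 13.2% higher and 13.5% lower between the sham libraries and 21.3% and 14.1% between the I/R libraries. Between the sham libraries 5 members were then higher by 1.5-fold or more, with Atf5 (0.67) joining the 4 above, and 0 were lower. Trib3 was then at 0.44 between the I/R libraries, with 0 members higher by 1.5-fold or more and 4 lower, Atf4 (-0.90), Asns (-0.97), Dnajb9 (-0.83) and Chac1 (-1.07). These comparisons use the same sham and I/R libraries as those above and are not further evidence.

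Letters known as binding sites of these factors were sought in the RefSeq promoters of the members (GRCm38.p6, 250 bases before to 50 after the start, both strands). All 10 members had a promoter, and 11 promoters were searched. The matches are shown to place the known elements of each branch beside the values of the genes that hold them. The C/EBP-ATF response element, TGATGNAA, was in 3 members, Chac1, Trib3 and Asns, and in 3.97% of 32851 promoters. In Chac1 (chr2:119351038-119351067, + strand) the match began 193 bases before the start on the reverse strand, in Asns (chr6:7693214-7693243, - strand) 23 bases before it, and in Trib3 (chr2:152344028-152344057, - strand) 15 bases after it on the reverse strand. The match in Asns lies in a GENCODE exon of Asns, and the other matches in none. Capitals mark the match.
Chac1: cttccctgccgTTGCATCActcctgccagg
Trib3: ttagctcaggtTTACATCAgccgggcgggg
Asns: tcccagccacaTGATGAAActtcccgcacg
In the young heart the 3 genes with this element differed on the CPM scale, where the median of all genes was -0.51. After I/R Asns was higher (1.56), Trib3 was lower (-0.74) and Chac1 was within counting error (0.54). Under gene-wise scaling these were 2.03, -0.28 and 1.01, so that Asns and Chac1 were past 1.5-fold and Trib3 was not.

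The ER stress response element, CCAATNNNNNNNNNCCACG, was in 2 members, Hspa5 and Hsp90b1, and in 0.119% of the promoters (39 of 32851). In Hspa5 (chr2:34772020-34772049, + strand) it began 65 bases before the RefSeq start, inside a longer GENCODE exon of Hspa5. Hsp90b1 held it at 212 bases before the start (chr10:86705632-86705661, - strand) and again, on the reverse strand, at 107 bases (chr10:86705527-86705556). Both ends of the element are in capitals with the 9 bases between them.
Hspa5: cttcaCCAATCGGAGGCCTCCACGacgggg
Hsp90b1, far site: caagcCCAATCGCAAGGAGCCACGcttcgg
Hsp90b1, near site: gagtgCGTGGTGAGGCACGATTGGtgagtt
Hspa5 and Hsp90b1 were alike in aged hearts (0.32 and 0.30) and differed in young hearts (0.44 and 0.05). A further motif, the unfolded protein response element TGACGTGG, was in 0.676% of promoters and in 0 members. A match is a description of the letters and not a measured site.

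The wider pathway was followed in 73 other genes in 3 lists. Of 38 known ATF4 target genes, 37 held enough UMIs, and in young hearts 11 were higher after I/R by 1.5-fold or more and 3 lower, with a median log2 ratio of 0.19. In aged hearts 6 were higher and 3 lower, with a median of 0.22. The medians of all genes in these comparisons were -0.51 and 0.09, and the shares of all genes higher and lower were 6.36% and 46.1% in young and 16.7% and 9.71% in aged hearts. Under gene-wise scaling the list had 19 higher and 2 lower in young and 5 higher and 3 lower in aged hearts. The shares of all genes were then 18.5% and 24.9% in young and 13.3% and 12.8% in aged hearts. In young hearts 3 of 9 genes of amino acid synthesis and 3 of 6 transporters were higher, and in aged hearts 0 of 9 and 2 of 6. Lower were 1 synthesis gene at each age, 0 transporters in young and 1 in aged hearts. The young and aged medians were -0.17 and -0.20 for synthesis and 0.35 and 0.31 for transport. Relative to all genes they were 0.35 and -0.29, and 0.87 and 0.22. Among 11 tRNA synthetases, 0 were past the fold in young hearts and 1, Eprs, in aged hearts, on the CPM scale. All 11 lay above the median of all genes in young hearts and 8 in aged hearts. Under gene-wise scaling Cars (0.70), Gars (0.92), Iars (0.78), Nars (0.71), Sars (0.79) and Wars (0.70) were past the fold in young hearts. In aged hearts Eprs alone was (1.10). Over all 73 genes on the CPM scale, 15 were higher and 7 lower in young hearts, and 16 and 3 in aged hearts. Under gene-wise scaling the young counts became 34 and 3.

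Among ATF4 targets, Gdf15, a secreted stress cytokine, was at 1.08 CPM for sham and 5.72 for I/R in the young, and 2.76 and 2.94, respectively, in the aged. Its log2 ratio was 2.40 (1.83 to 3.02) in young and 0.09 (-0.25 to 0.44) in aged hearts. Atf3, a stress-induced transcription factor, was at 2.09, 10.4, 2.35 and 4.88 CPM in that order, with log2 ratios of 2.32 (1.91 to 2.76) and 1.06 (0.73 to 1.40). Ppp1r15a, the GADD34 subunit that reverses eIF2α phosphorylation, had 0.52 (0.32 to 0.72) and 1.12 (0.95 to 1.30). Eprs had -0.13 (-0.20 to -0.07), which turned to 0.34 under gene-wise scaling, and 1.19 (1.13 to 1.25). At the low end, Stc2, a secreted glycoprotein, had -1.91 (-2.23 to -1.60) and -0.29 (-0.50 to -0.09), Vldlr, a lipoprotein receptor, had -0.70 and -0.17, Nupr1, a stress-induced chromatin protein, had -0.58 and -0.84, and the glycine transporter Slc6a9 had -0.21, or 0.26 under gene-wise scaling, and -0.74. Genes of the list thus differed in direction within a library pair. Outside the rule for naming, and chosen after the values were seen, the cystine transporter Slc7a11 had 2 and 73 UMIs in young sham and I/R and 7 and 65 UMIs in aged sham and I/R, with log2 ratios of 4.57 (2.67 to 7.64) in young and 2.52 (1.40 to 3.89) in aged hearts. It was higher after I/R at both ages, from very few sham UMIs.

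Of 24 ER folding and degradation genes, 23 held enough UMIs. In young hearts 4 were higher and 0 lower, with a median log2 ratio of 0.20, where 6.36% and 46.1% of all genes were. In aged hearts 5 were higher and 0 lower, with a median of 0.22, where 16.7% and 9.71% of all genes were. Gene-wise scaling gave 14 higher and 0 lower in young and 5 higher and 1 lower in aged hearts. Of all genes, 18.5% and 24.9% were then higher and lower in young and 13.3% and 12.8% in aged hearts. In young hearts the highest were Herpud1, which serves degradation of ER proteins, at 1.14 (1.07 to 1.21) and Manf, a secreted ER stress protein, at 0.84 (0.70 to 0.98). In aged hearts these had -0.42 (-0.48 to -0.37) and 0.05 (-0.05 to 0.15), and the highest were the folding enzyme Pdia4 at 1.61 (1.45 to 1.76) and the chaperone Hyou1 at 1.15 (0.99 to 1.31). Pdia4 and Hyou1 had -0.19 (-0.42 to 0.04) and -0.25 (-0.46 to -0.04) in young hearts, which turned to 0.28 and 0.22 under gene-wise scaling. The ends of the list were therefore different genes at the 2 ages, with Herpud1 at 90.7 and 199.8 CPM in young sham and I/R and 117 and 87.3 CPM in aged sham and I/R, and Pdia4 at 10.7 and 9.38 CPM and at 9.67 and 29.4 CPM. The lowest were Os9 (-0.47) and Derl2 (-0.44), both of ER-associated degradation, in young hearts (-0.004 and 0.02 under gene-wise scaling), and Derl1 (-0.51) and Herpud1 in aged hearts.

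Of 11 genes for the sensors and the control of eIF2α, 0 were higher and 4 lower in young hearts, with a median log2 ratio of -0.47 close to that of all genes, of which 46.1% were lower. In aged hearts 5 were higher and 0 lower, with a median of 0.57, where 16.7% of all genes were higher. Gene-wise scaling gave 1 higher and 1 lower in young and 5 higher and 0 lower in aged hearts. Of all genes, 18.5% and 24.9% were then higher and lower in young and 13.3% and 12.8% in aged hearts. In aged hearts the highest were Ppp1r15b, the constitutive partner of the eIF2α phosphatase, at 0.86 (0.72 to 1.01) and the heme-regulated eIF2α kinase Eif2ak1 at 0.81 (0.67 to 0.94). In young hearts the lowest were the kinase Eif2ak2, which senses viral RNA, at -1.32 (-1.51 to -1.13) and Mbtps1, the protease that cleaves ATF6, at -0.97 (-1.09 to -0.84), and the highest were Eif2s1, which encodes eIF2α itself, at 0.26 (0.11 to 0.41) and Ppp1r15b at -0.02 (0.45 under gene-wise scaling). The lowest in aged hearts were Atf6b at -0.04 and Mbtps2 at 0.06. The young ratios would all be 0.47 higher and the aged ones 0.09 lower under gene-wise scaling, which leaves young values on both sides of 0, such as -0.85 for Eif2ak2 and 0.73 for Eif2s1.

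**Figure D4:**
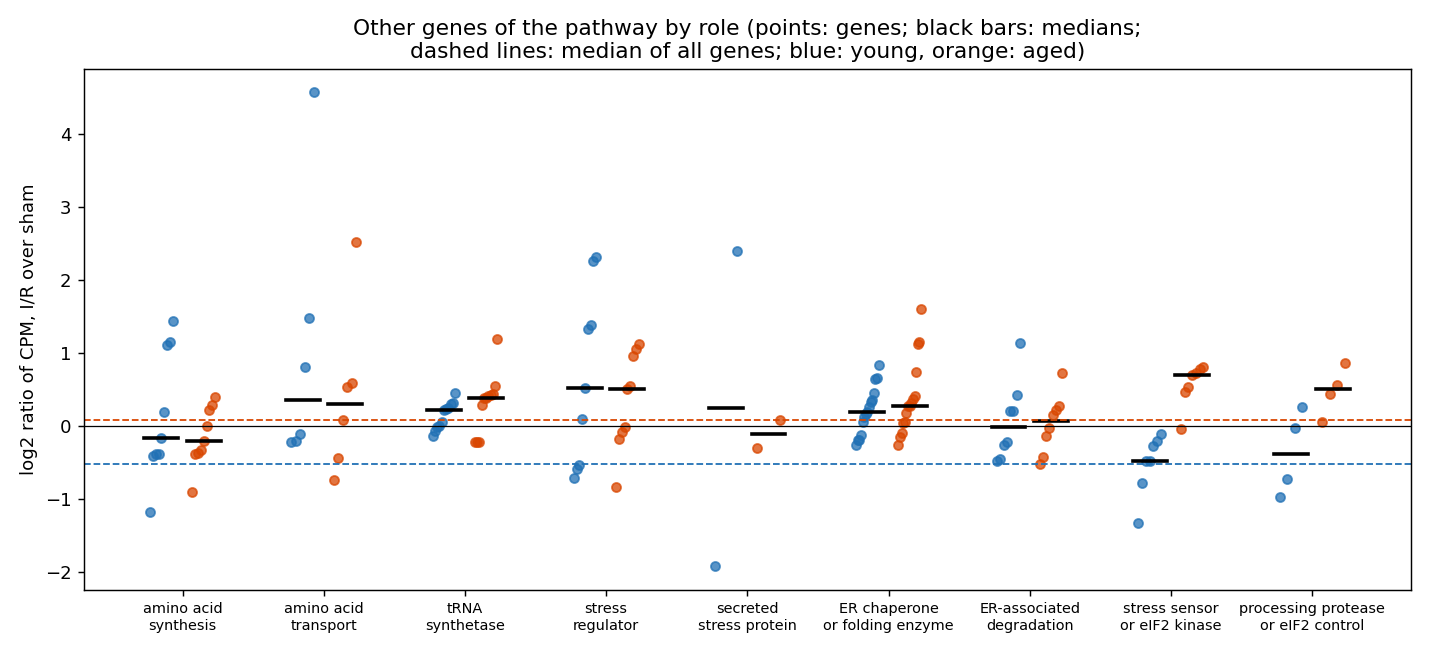
Log2 ratio of CPM, I/R over sham, of the other pathway genes by role, in young (blue) and aged (orange) hearts. Points are genes, black bars are medians, and dashed lines are the medians of all genes at -0.51 and 0.09. The highest amino acid genes reach higher in young than in aged hearts, although the medians of these groups are close between ages on the CPM scale. On that scale sensors and eIF2 kinases lie below 0 in young and mostly above 0 in aged hearts. Under gene-wise scaling the young values lie 0.47 higher, and the sensors and kinases then fall on both sides of 0.

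Levels were also compared between barcodes with at least 2 UMIs of a cell type's markers and barcodes with none, within each library. For the 7 members other than Chac1, Trib3 and Asns, log2 ratios lay between -0.14 and 0.12 for endothelial and -0.26 and 0.38 for fibroblast markers. For macrophage markers they lay between -0.94 and 0.95, both ends from few UMIs in young I/R. These were Dnajb9 from 4 UMIs in marker barcodes (-2.82 to 0.42) and Ddit3 from 14 (0.07 to 1.70). Mural markers gave -1.07 to 1.02, the ends being Dnajb9 in aged sham (-1.86 to -0.38) and Atf5 in young sham (0.44 to 1.55), each from few UMIs. Neutrophil markers marked 8 to 303 barcodes per library, and Hspa5 in aged I/R (-0.31, -0.62 to -0.02) was the 1 interval there away from 0. The top against the bottom 25% of barcodes by cardiomyocyte markers gave -0.38 to 0.26. Some of these intervals were away from 0, on both sides. In aged I/R, Hsp90b1 had 0.22 (0.17 to 0.28), Ddit3 -0.30 (-0.48 to -0.12) and Xbp1 -0.27 (-0.40 to -0.15). Barcodes chosen by endothelial, fibroblast or macrophage markers were hardly resolved by type. A marker left out of the choice had median log2 ratios of only 0.03 to 0.21 for endothelial, 0.18 to 0.66 for fibroblast and 0.27 to 1.08 for macrophage markers. The cardiomyocyte, mural and neutrophil cuts were not checked in this way. These cuts are ranges of a score and not cell types, and the levels above were not assigned to a cell type.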

How the data were processed

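The authors dissociated left ventricles, made 1 10x Chromium 3′ library per condition and ran Cell Ranger 6.0.2 with the mm10 reference. The deposited filtered matrices hold counts of UMIs per gene and barcode, whole and unscaled. The annotation release and the use of intronic reads are not given in the sources used here. Conditions came from the labels.

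Python 3.11.15, numpy 2.4.6, scipy 1.17.1, pandas 2.3.3 and matplotlib 3.10.9 were used. UMIs were summed over all barcodes and divided by the library total (CPM). Intervals are exact Poisson for a level and exact binomial for a ratio of sums. They cover counting error only. Ratios were used for genes whose 2 libraries together held 20 UMIs or more, and genes past 1.5-fold were counted. Alternatives were another scaling, fewer or other barcodes, another fold or count limit, and Xbp1 counted with the chaperones. The ratio calculation was tested on simulated data. All 10 members are named, and in each other list the 2 highest and 2 lowest log2 ratios of I/R to sham at 100 or more UMIs. Gene positions are from GENCODE M21. The members and lists were chosen with earlier results of these data known. Barcodes were not clustered, no doublets were removed, and the check with left-out markers was added after the data were seen.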

Additional observations from a re-analysis of the deposited data

Results flagged for a closer look

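Dnajb9 was singled out because its ratio of I/R to sham pointed in opposite directions at the 2 ages, with both counting intervals away from 0. The aged minus the young log2 ratio was -1.002 (-1.21 to -0.80). The levels were 15.6 and 26.1 CPM for young sham and I/R and 23.4 and 19.6 CPM for aged sham and I/R. With 1 library per condition the difference was not tested.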

How the results depend on the processing

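The difference between the medians of the ATF4 arm and the chaperones kept its sign in the comparisons of I/R with sham and between I/R libraries under the alternatives run. These changed the barcodes used or counted Xbp1 with the chaperones. Dropping 1 arm gene can turn the sign in young hearts and between I/R libraries. Between the sham libraries the difference was 0.26, or 0.12 in barcodes with at least 200 detected genes and 0.17 without barcodes shared by libraries. Taking the arm's median lower bound minus the chaperones' median upper bound, and then upper minus lower, gave a range of -0.15 to 0.56. This range has no known coverage and is not a counting interval, so whether the difference was away from 0 was not tested. Scaling by the median of gene-wise ratios reversed Atf5 in young I/R over sham (0.066), Ddit3 (-0.12) and Hspa5 (-0.21) in aged over young I/R, the chaperone median there (-0.21), and the aged minus young difference of Ddit3 (-0.087) and Hsp90b1 (-0.31). It moved the arm's median to -0.51 in aged over young I/R and 0.54 in young I/R over sham, and the chaperone median to 0.21 in aged I/R over sham, 0.48 in aged over young sham and 0.91 in young I/R over sham. Leaving Gm42418, Malat1 and mitochondrial genes out of the totals gave an arm median of -0.26 in aged over young I/R, and chaperone medians of 0.21 (aged I/R over sham), 0.047 (aged over young I/R), 0.40 (aged over young sham) and 0.59 (young I/R over sham). Barcodes with at least 200 genes gave chaperone medians of 0.45 between sham libraries and 0.57 in young I/R over sham, and 32.3 arm UMIs per 100 chaperone UMIs in young sham. With Xbp1 among the chaperones, arm UMIs per 100 were 24.9 and 19.999 in young sham and I/R and 23.6 and 15.2 in aged sham and I/R, and the chaperone median between I/R libraries was 0.10.

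Of the 73 other pathway genes, 15 were higher and 7 lower in young I/R over sham, 16 and 3 in aged I/R over sham, 9 and 1 between sham libraries, and 13 and 9 between I/R libraries. Of all genes, 6.36% were higher and 46.1% lower in young I/R over sham, and 16.7% and 9.71% in aged I/R over sham. Between sham libraries these shares were 8.99% and 19.8%, and between I/R libraries 42.7% and 4.38%. At 2-fold, 10 ATF4 targets and 1 ER folding gene were higher in young I/R over sham, and 3 of the pathway genes were lower. In aged I/R over sham 7 were higher and 0 lower. Between sham libraries 1 was higher and 0 lower, and between I/R libraries 5 were higher and 4 lower. Of all genes, 3.26% were higher and 27.0% lower at 2-fold in young I/R over sham, and 5.65% higher and 3.02% lower in aged I/R over sham. The 2-fold shares were 3.48% higher and 7.21% lower between sham libraries, and 21.3% and 1.58% between I/R libraries. Gene-wise scaling gave 34 higher and 3 lower in young I/R over sham, 0 lower between sham libraries, and 5 higher and 16 lower between I/R libraries. Under that scaling 18.5% of all genes were higher and 24.9% lower in young I/R over sham. The shares were 13.5% lower between sham libraries, and 21.3% higher and 14.1% lower between I/R libraries. Without the abundant genes in the totals 8 pathway genes were higher between I/R libraries, where 33.3% of all genes were. The 1 lower pathway gene between sham libraries became 2 with no count limit or without shared barcodes, and 6 with at least 200 genes per barcode. Of all genes, 26.2%, 19.9% and 24.8% were lower in these settings, in that order. Among the members, no other value with a counting interval away from 0 changed sign. Of the other pathway genes with such intervals, gene-wise scaling changed the sign of 11 in young I/R over sham, 1 in aged I/R over sham, 2 between sham and 16 between I/R libraries. With at least 200 genes per barcode, Asns was 2.64 in young I/R over sham, 2.28 between sham libraries and -2.89 for the age difference. That limit cut the libraries unequally, keeping 28.4% of young sham, 55.2% of young I/R, 67.9% of aged sham and 98.8% of aged I/R barcodes. The causes of these changes were not tested. Chac1, Asns and Trib3 are limited by 25 to 235 UMIs per library. No paired analysis was possible because each condition has 1 library.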
